A study of Mus musculus with 4 samples.

Results

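Socs1, Socs2, Socs3, Cish, Spred1, Spred2, Ptpn6 and Inpp5d, 8 genes for inhibitors that cells use to damp cytokine and growth factor signalling, were described in m6A-seq data from mouse macrophages. They were chosen by gene name, and 7 of them had at least 1 m6A peak under their own name, among 13035 genes with a peak in either genotype. The remaining gene, Spred1, held a peak in both genotypes that is listed under another name. In m6A-seq, poly(A) RNA is broken into fragments, those carrying N6-methyladenosine are pulled down with an antibody to give the IP library, and fragments kept aside before that step give the input library. The KO macrophages were Mettl3fl/fl with LysM-cre, a recombinase driven by the lysozyme 2 gene and active in myeloid cells, and so lack the m6A-writing enzyme METTL3 by design. The WT macrophages were Mettl3fl/fl without the recombinase. Both were C57BL/6 bone marrow cells kept for 7 days in M-CSF, the growth factor that drives macrophage formation, and neither received a further stimulus according to the labels. Each genotype had 1 IP and 1 input library, so no difference below has a replicate check. How many animals each library holds is not stated.

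SOCS proteins and CIS (encoded by Cish) are induced by the cytokine receptors that they restrain: they bind phosphorylated receptors or JAK kinases through an SH2 domain and recruit a ubiquitin ligase through their SOCS box. SPRED proteins hold back the Ras-ERK cascade by bringing the Ras inactivator neurofibromin to the membrane. The tyrosine phosphatase SHP-1 (Ptpn6) and the lipid phosphatase SHIP1 (Inpp5d) are constitutive in blood cells and act at inhibitory receptors. In macrophages these proteins limit responses to interferons, interleukin 6 family cytokines, colony-stimulating factors and immune complexes.

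The KO list held 21031 peaks and the WT list 16709, and the table of differences between the genotypes held 6050. Mettl3 had 1 peak in the KO list and 0 in the WT list; its input level was not analysed here, so the deletion could not be checked on its transcript. Of 7 macrophage markers, 5 had a KO peak and 3 a WT peak, and 4 had a listed level. Adgre1 stood at 269.0 FPKM in KO input and 247.0 FPKM in WT input, and Cd14 at 198.0 FPKM in KO and 153.0 FPKM in WT. Fcgr1 stood at 58.4 FPKM in KO and 40.6 FPKM in WT, and Cd68 at 994.0 FPKM in KO and 1030.0 FPKM in WT. Thus 3 of the 4 were higher in KO, near the 69.0% of all listed genes that averaged 1 FPKM or more. No marker among 4 of B cells and 4 of T and NK cells had a peak or a listed level. Of markers of other cells, the stromal genes Col1a1 and Col1a2, the mast cell gene Kit, the osteoclast gene Ocstamp and the dendritic cell genes Itgax and Zbtb46 had peaks in both lists, the osteoclast genes Acp5 and Ctsk and the neutrophil gene S100a8 in the KO list alone, and the neutrophil gene Mpo in the WT list alone. The neutrophil gene S100a8 had 46.4 FPKM in KO input and 77.7 FPKM in WT input, and the dendritic cell marker Itgax had 46.7 and 71.9 FPKM in KO and WT input; their part in any result was not tested. Levels are listed only for genes with a differential peak.

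Under the names of the 8 genes stood 10 peaks in the KO list and 9 in the WT list, and most of them lay in 3′ UTRs. The KO count includes a peak assigned to Ptpn6 that lies in the neighbouring gene Grcc10. Both counts leave out the Spred1 peaks, which are listed under another name and described below. By the authors' annotation, 8 of 10 KO peaks and 8 of 9 WT peaks were in a 3′ UTR, against 64.1% of all KO peaks and 59.6% of all WT peaks. More than 1 exonic block was joined in 4 of the KO and 2 of the WT peaks, against 32.7% and 38.8% of all peaks in the KO and WT lists. A false discovery rate (FDR) under 0.05 was listed for 5 of 10 KO peaks and 5 of 9 WT peaks. Over all peaks, the shares were 64.9% in the KO list and 70.2% in the WT list. The Grcc10 peak is among those 5 KO peaks. Peaks of the other genotype covered 6 of the 10 KO peaks and 8 of the 9 WT peaks by at least 1 base, against 61.6% and 73.4% over the whole KO and WT lists. A differential peak was listed under the name of 2 of the 7 genes with a peak under their own name, Ptpn6 and Inpp5d. This was close to the 36.0% of all genes with a peak that had one. The fold enrichment and p of each peak are the authors' own values and rank a peak within its list only. KO and WT peaks of a gene often cover different stretches, so their fold values are set beside each other below without a comparison.

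**Figure D1:**
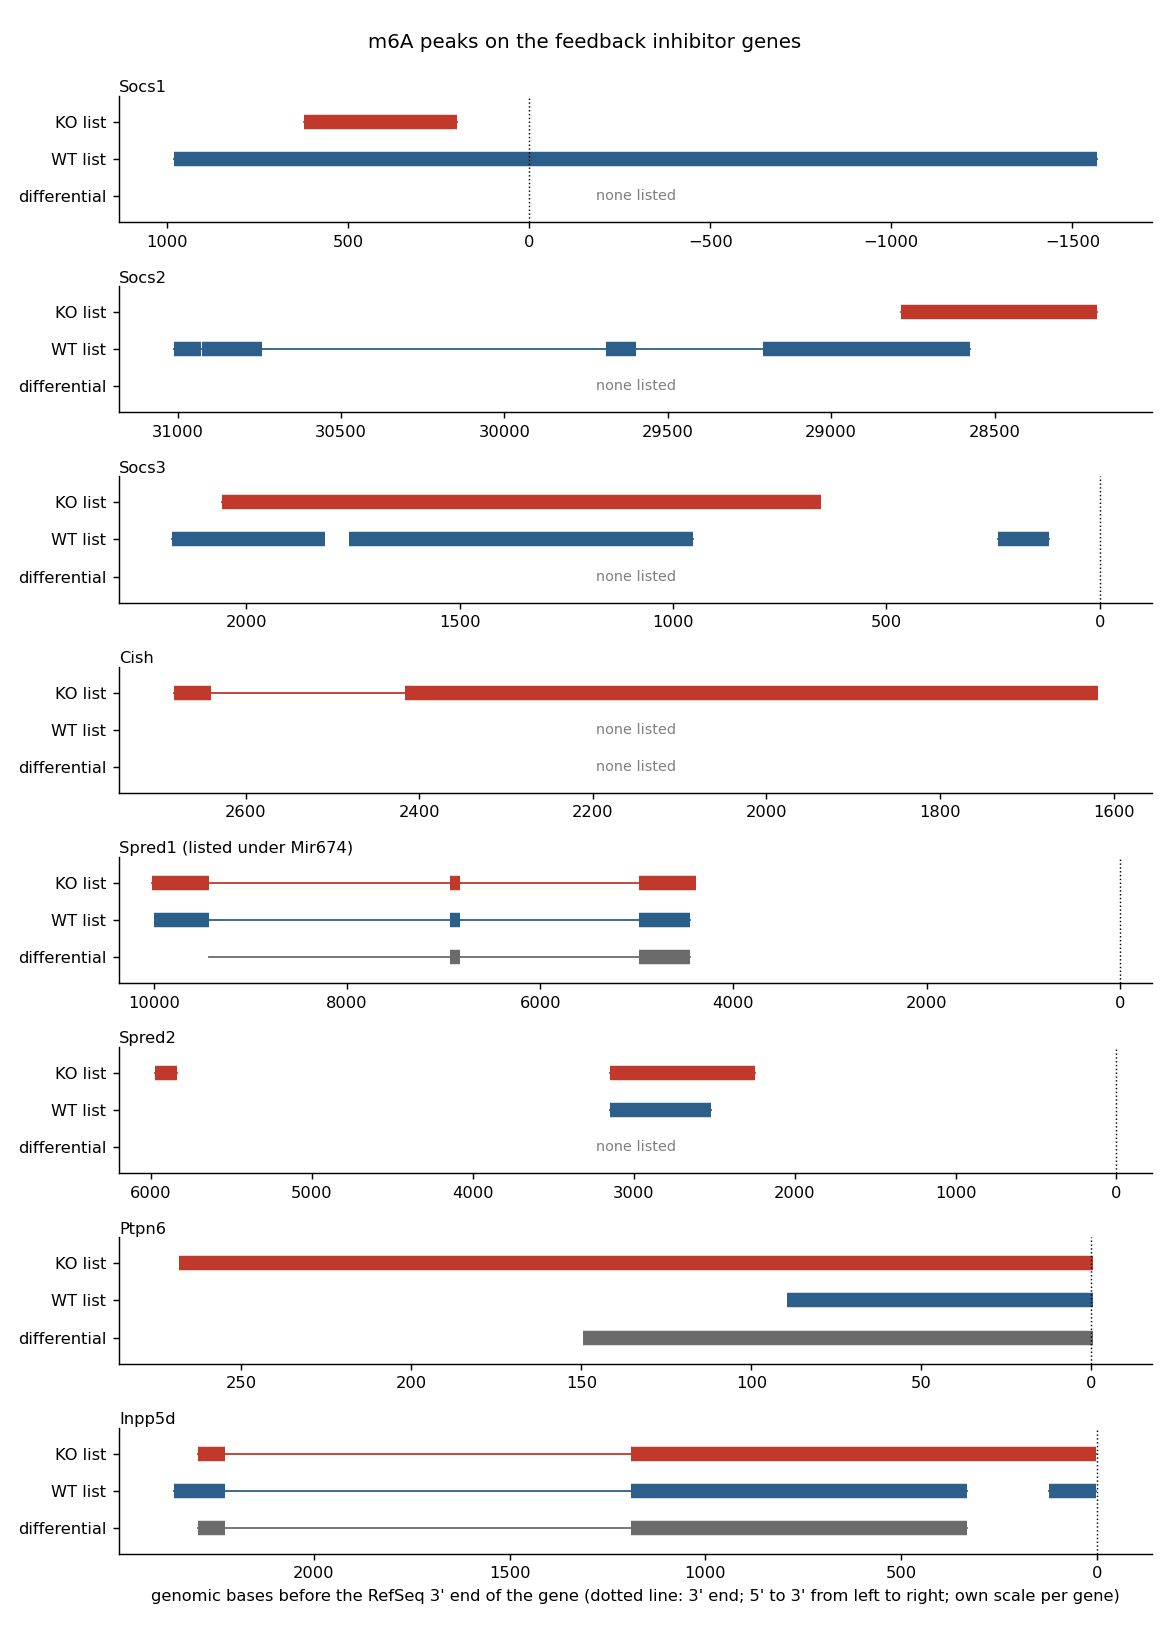
Peaks of the 8 genes by distance from the RefSeq 3′ end of the gene in genomic bases, with the KO list on top, the WT list in the middle and the table of differences at the bottom of each panel. Thick bars are exonic blocks and thin lines the introns or gaps between them. The 5′ UTR peak of Spred2 in the KO list and the first block of its exon 5 peak are not drawn. The peaks in Grcc10 that are assigned to Ptpn6 are also left out. Ptpn6 and Inpp5d peaks reach the end of the gene, and Cish has a bar in the KO list only.

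Among the SOCS genes, Socs3 had the best supported peak in both genotypes. SOCS3 is the main brake on gp130 receptors, which carry the interleukin 6 signal. In KO cells Socs3 had 1 peak of 1402 bases (chromosome 11, 117966734 to 117968135, mm10, minus strand) with 5.98-fold enrichment and an FDR of 2e-12. In WT cells it had 3 peaks. The strongest by p, of 806 bases (117967032 to 117967837, 3′ UTR), had 9.18-fold enrichment and an FDR of 9.77e-05. A WT peak of 359 bases annotated to the 5′ UTR (117967896 to 117968254) had 7.14-fold enrichment, and one of 120 bases near the 3′ end (117966198 to 117966317) had 2.86-fold, both with an FDR above 0.05 (0.229 and 0.16). The single KO peak therefore covered all 806 bases of the strongest WT peak and 240 of the 359 bases of its neighbour, whereas the WT peak near the 3′ end met no KO peak. The KO peak stood at the 72.0th percentile of fold enrichment in the KO list and the strongest WT peak at the 80.0th in the WT list.

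Socs1 encodes the inhibitor of JAK kinases that restrains interferon signalling. Its KO peak covered 421 bases (chromosome 16, 10784008 to 10784428, 3′ UTR, minus strand) with 4.72-fold enrichment and an FDR of 0.0871, and its WT peak covered 2548 bases (10782240 to 10784787) with 12.2-fold enrichment and an FDR of 0.0107. The whole KO peak lay inside the WT peak and made up 16.5% of it. The WT peak ran 1568 bases past the RefSeq end of the gene, along a longer transcript that the authors' annotation gives for Socs1. It ranked at the 86.9th percentile of the WT list by fold, the highest rank there among the 8 genes.

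Socs2, known for limiting growth hormone signalling, had 1 peak in each list, and neither reached an FDR of 0.05. The KO peak covered 600 bases (chromosome 10, 95412089 to 95412688) with 4.72-fold enrichment and an FDR of 0.228. The WT peak joined 4 blocks of 989 bases in all (95412478 to 95414913), with 9.18-fold enrichment and an FDR of 0.195. The extent of the gene Gm33230 also overlaps the WT peak but not the KO peak. The KO and WT peaks shared 211 bases, and ended 28186 bases (KO) and 28575 bases (WT) before the end of the RefSeq extent of Socs2.

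Cish was the only one of the 8 genes with a peak in the KO list and none in the WT list. CIS is a STAT5 target that limits signalling by receptors for colony-stimulating factors and interleukin 2. The KO peak joined 2 blocks of 841 bases in all (chromosome 9, 107300102 to 107301165, 3′ UTR, plus strand). Its enrichment of 8.27-fold was at the 82.6th percentile of the KO list, the highest rank there among the 8 genes, while its FDR was 0.228. Of all genes with a peak in either list, 24.2% were named in the KO list only and 10.4% in the WT list only, beside 1 and 0 of the 7. No Socs1, Socs2, Socs3 or Cish peak stood in the table of differences, which lists only peaks with a p under 0.05, and no input level is listed for these genes.

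**Figure D2:**
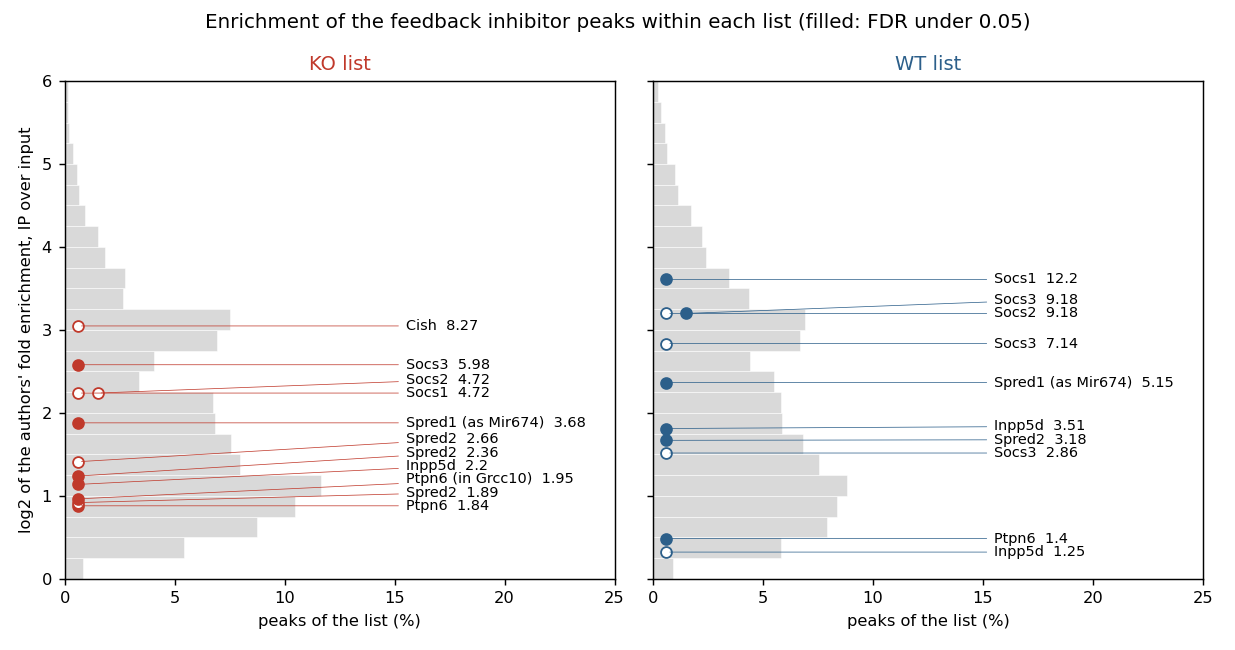
Authors' fold enrichment of IP over input on a log2 axis for peaks of the 8 genes (circles, labelled with the fold) beside the distribution of all peaks of the list (grey bars, percent of the list), for KO on the left and WT on the right, with grey bars above 6 not drawn. Filled circles have an FDR under 0.05; apart from a Socs3 peak of 2.86-fold in the WT list, the Socs genes and Cish lie in the upper part of each list, and Ptpn6 lies low in both.

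In these genes, high fold enrichment did not always come with an FDR under 0.05. Whether the same held over the whole lists was not tested. All 4 KO peaks of at least 4-fold belonged to Socs1, Socs2, Socs3 and Cish, but only that of Socs3 had an FDR under 0.05. The 4 WT peaks of at least 4-fold under the genes' own names belonged to Socs1, Socs2 and Socs3. Of these, 2, in Socs1 and Socs3, had an FDR under 0.05. The WT peak on Spred1, listed under another name, also passed 4-fold (5.15-fold, FDR 3.16e-59). Peaks of at least 4-fold made up 40.5% of the KO list and 48.0% of the WT list. Inpp5d had the smallest peak p under its own name in each list, 2e-34 in KO and 5e-97 in WT, at 2.2-fold and 3.51-fold enrichment in KO and WT.

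Spred2 had 3 peaks in KO cells and 1 in WT cells. A 3′ UTR peak on chromosome 11 began at the same base in both genotypes (20020877, plus strand). In KO cells it covered 901 bases with 2.36-fold enrichment and an FDR of 0.00437, and in WT cells 631 bases with 3.18-fold enrichment and an FDR of 8.32e-08. All 631 WT bases lay in the KO peak. The other KO peaks were a 4-block peak of 421 bases annotated to the 5′ UTR (19924915 to 20001039, 2.66-fold, FDR 0.172) and a 2-block peak of 151 bases annotated to exon 5 of 7 (20008462 to 20018186, 1.89-fold, FDR 0.203). Neither met a WT peak, and both were above an FDR of 0.05.

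Spred1 had no peak under its own name, but its gene body held a peak with a very small FDR in both genotypes. The authors' tables assign it to Mir674. That microRNA gene begins 7241 bases after the KO peak and 2848 bases after the RefSeq end of Spred1. The mature products of that microRNA are separate RNAs, shown here from RefSeq (GRCm38.p6) because their name stands on the Spred1 peak, with the seed (bases 2 to 8) in capitals.
mmu-miR-674-5p: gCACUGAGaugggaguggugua
mmu-miR-674-3p: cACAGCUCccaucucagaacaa
The KO peak joined 3 blocks of 598, 102 and 585 bases on chromosome 2 (117172257 to 117177886, plus strand, annotated to a 3′ UTR), with 3.68-fold enrichment and an FDR of 3.98e-40. The WT peak joined blocks of 569, 102 and 526 bases (117172286 to 117177827), with 5.15-fold enrichment and an FDR of 3.16e-59. The KO peak held every base of the WT peak, and 93.2% of the KO peak was shared. By fold, the KO peak stood at the 57.0th percentile of the KO list and the WT peak at the 61.3rd of the WT list. Of the peaks on the 8 genes, only the main Inpp5d peak of the WT list had a smaller FDR than this WT peak, and no KO peak had a smaller FDR than this KO peak. The table of differences lists 629 bases of this stretch, in blocks of 1, 102 and 526 (117172854 to 117177827). They hold only 1 base of the first block of the KO and WT peaks. In the authors' deposited table their log2 ratio of KO over WT was -0.378 (FDR 0.0135), that is 0.77 of the WT enrichment. That ratio lay 0.024 above the table's median of -0.402. The level listed beside it, 0.0512 FPKM in KO input and 0 in WT input, is that of the microRNA gene and not of Spred1.

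Inpp5d, which encodes SHIP1, had lower enrichment in KO cells near the 3′ end of the gene. SHIP1 removes the 5-phosphate from PIP3 and so opposes PI3-kinase signalling downstream of Fc and cytokine receptors. The KO peak joined 2 blocks of 1258 bases in all (chromosome 1, 87718214 to 87720507, plus strand), ending 3 bases before the RefSeq end of the gene, with 2.2-fold enrichment and an FDR of 6.31e-33. In WT cells a 2-block peak of 989 bases (87718154 to 87720178) had 3.51-fold enrichment and an FDR of 3.16e-95, and a separate peak of 121 bases at the very end (87720387 to 87720507) had 1.25-fold enrichment and an FDR of 0.265. The KO peak thus ran on across the gap that separates the WT peaks. The WT peak of 121 bases was at the 2.16th percentile of the WT list by fold, the lowest rank there among the 8 genes. The extent of the predicted gene Gm33470 overlaps these peaks.

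In the authors' deposited table, the 929 bases that the main Inpp5d peaks of both genotypes share (87718214 to 87720178) had a log2 ratio of KO over WT of -0.571, or 0.673 of the WT enrichment. The FDR of that difference in the authors' deposited table was 5e-21, which compares the reads of these libraries and not the genotypes. The same direction held for 69.6% of all peaks in that table. The Inpp5d ratio was at the 32.8th percentile of the table, and its difference from the table's median was -0.169.

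Ptpn6, which encodes SHP-1, went the other way. SHP-1 removes phosphate from JAK kinases, receptors and their adaptors. Its KO peak covered the last 269 bases of the gene (chromosome 6, 124720707 to 124720975, 3′ UTR, minus strand), with 1.84-fold enrichment and an FDR of 5.01e-15. Its WT peak covered the last 90 bases (124720707 to 124720796), with 1.4-fold enrichment and an FDR of 0.00372. Both started at the base where the RefSeq gene ends. By fold, the KO peak was at the 20.5th percentile of the KO list and the WT peak at the 6.3rd of the WT list. In the authors' deposited table the last 150 bases had a log2 ratio of KO over WT of 0.46 (FDR 0.0046), or 1.38 times the WT enrichment. That ratio lay 0.862 above the table's median, at the 78.7th percentile. Higher enrichment in KO was found for 30.4% of all peaks in that table.

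The larger values listed for Ptpn6 do not lie in it. A KO peak of 298 bases (124739183 to 124739480, 1.95-fold, FDR 3.16e-22) and the differential peaks that the authors' deposited table gives at 0.991 and 1.04 overlapped Grcc10, the neighbouring gene on the same strand, whose RefSeq 3′ end is at 124739183. These differential peaks are 1 stretch listed more than once, since the shorter, of 150 bases, lies wholly in the longer, of 179 bases. No WT peak met either of them. A further KO peak, of 240 bases, was assigned to Grcc10 itself over the same stretch (2.18-fold, FDR 2e-20). In the table of differences, 83.6% of peaks whose gene was found in RefSeq overlapped the gene they were assigned to.

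**Figure D3:**
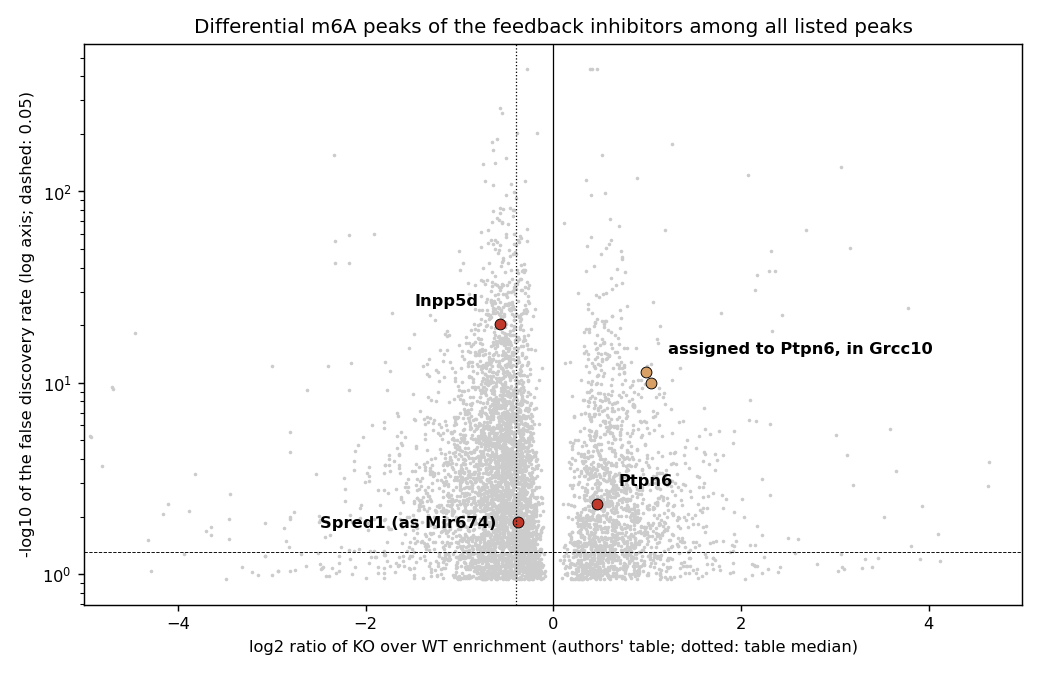
Log2 ratio of KO over WT enrichment against the FDR of the difference (log axis) for all peaks of the authors' deposited table in grey, with peaks on Inpp5d, Ptpn6 and Spred1 in red and the peaks assigned to Ptpn6 that lie in Grcc10 in orange. Inpp5d and Spred1 lie left of 0 and Ptpn6 right of it; 12 peaks beyond 5 on either side are not drawn.

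Read by position, then, 3 of the 8 genes had a differential peak: Inpp5d and Spred1 with lower enrichment in KO and Ptpn6 with higher enrichment in KO. The share of all genes with a differential peak by position was not worked out. By the authors' assignment there were 4 differential peaks, 1 lower and 3 higher, against 69.6% lower and 30.4% higher in the whole table. The higher ones include the Grcc10 stretch that is listed more than once. All 4 had an FDR under 0.05, as did 79.6% of the table.

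Input levels are listed for Inpp5d and Ptpn6 alone among the 8 genes. Inpp5d had 30.8 FPKM in KO input and 26.3 FPKM in WT input, a difference of 0.223 on the log2(FPKM + 1) scale, KO minus WT. Ptpn6 had 78.6 FPKM in KO input and 73.6 FPKM in WT input, a difference of 0.095 on that scale. Both stood slightly higher in KO, as did 69.0% of listed genes that averaged 1 FPKM or more, whose median difference was 0.072. The authors' deposited table gives an adjusted p of 1 for both genes, from their own comparison of 1 library with 1. By mean level, Inpp5d ranked above 85.1% and Ptpn6 above 94.0% of the listed genes. In bulk RNA, fewer cells of a type and less RNA per cell cannot be told apart.

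**Figure D4:**
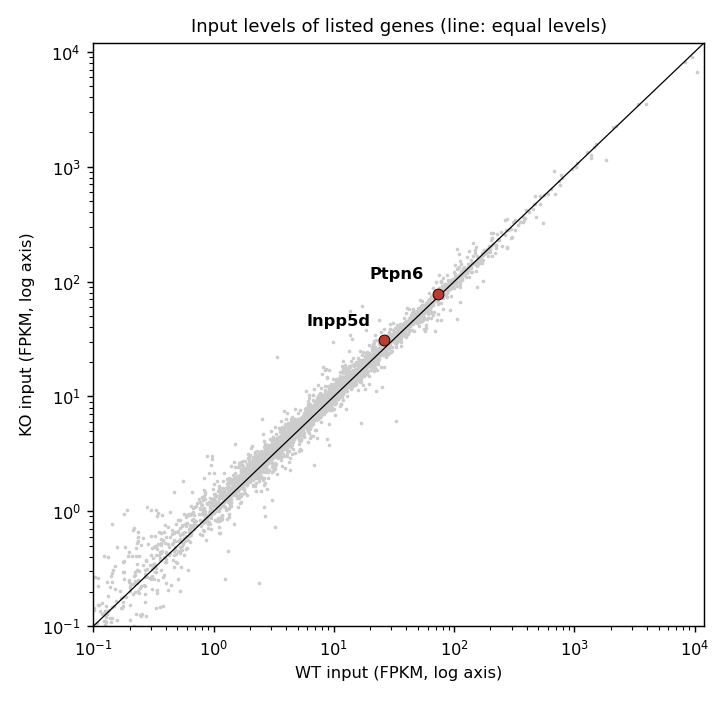
Input levels in KO (vertical) against WT (horizontal) for genes with a listed level, in FPKM on log axes, with the line of equal levels; 1 library per genotype. Inpp5d and Ptpn6 (red) lie just above the line; 375 genes at or under 0.1 FPKM in either input are not drawn.

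The genes closest to Inpp5d in differential ratio and in both input levels were Chtf8, Mdfic and Wbp1l. Closeness was the Euclidean distance over the log2 ratio and log2(FPKM + 1) in KO and WT input, over 4402 genes, with 1 peak per gene. Chtf8, at a distance of 0.0796, had a log2 ratio of -0.51 in the authors' deposited table, with 30.7 FPKM in KO input and 25.3 FPKM in WT input. Mdfic and Wbp1l, at 0.0816 and 0.0959, had log2 ratios of -0.58 and -0.60 in the authors' deposited table, both in 5′ UTRs, whereas the Inpp5d peak is in the 3′ UTR.

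For 109 other genes of these pathways, the authors' deposited table listed 43 peaks with lower and 15 with higher enrichment in KO, with a median log2 ratio of -0.357 beside the -0.402 of all listed peaks. Lower enrichment was found for 69.6% of all peaks in that table, and the counts of the single lists below are to be read against that share. Among the partners and relatives of the SOCS proteins, the authors' deposited table had 4 peaks, all with lower enrichment in KO: Socs4 at -0.45, Socs6 at -0.41, the cullin scaffold Cul5 of the SOCS ubiquitin ligase at -0.90 (FDR 0.055), and a peak assigned to Rbx1 at -2.26 that lay in Xpnpep3. Of the kin of SPRED, the ERK pathway inhibitor Spry2 stood at -0.58 and the Ras inactivator Rasa1 at -0.34 in the authors' deposited table. Both listed PIAS genes, whose proteins restrain STAT factors, were lower, Pias4 at -0.88 and Pias1 at -0.64 in the authors' deposited table.

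The signalling chains that the 8 inhibitors act on had peaks in both directions. For the JAK-STAT core the authors' deposited table listed 3 lower and 2 higher peaks, from the kinase gene Jak1 (-0.475) to Stat3, the factor that gp130 receptors activate (0.73, FDR 0.106). Cytokine receptor chains had 7 lower and 3 higher in it, from the interferon receptor gene Ifnar1 (-0.54) to the interleukin 10 receptor gene Il10rb (0.33). The Ras-ERK cascade had 3 lower and 1 higher, from Hras (-0.64) to the ERK1 gene Mapk3 (0.13, FDR 0.0776), in the authors' deposited table. For tyrosine phosphatases other than Ptpn6 the authors' deposited table listed 8 lower and 3 higher peaks, among them Ptprj at -0.77 and Ptprc, which encodes CD45, at 0.71. Phosphoinositide phosphatases other than Inpp5d had 4 lower and 2 higher, from a 5′ UTR peak of Inpp5e at -1.06 to a peak at 1.20 in the authors' deposited table that is assigned to Inpp5e but lay in Sec16a. Synj1 stood at -0.38 in the authors' deposited table. Docking proteins and receptors that recruit SHP-1 or SHIP1 had 10 lower and 4 higher, from Cd22 (-0.765) to Sirpa (0.62) in the authors' deposited table. The higher ones include a Lilrb4a stretch listed more than once, at 0.399 and 0.405 in the authors' deposited table. It is also counted more than once among the 15 higher peaks of all lists. Sirpa, whose product engages SHP-1 in macrophages, held 4 listed peaks, 3 lower and 1 higher.

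**Figure D5:**
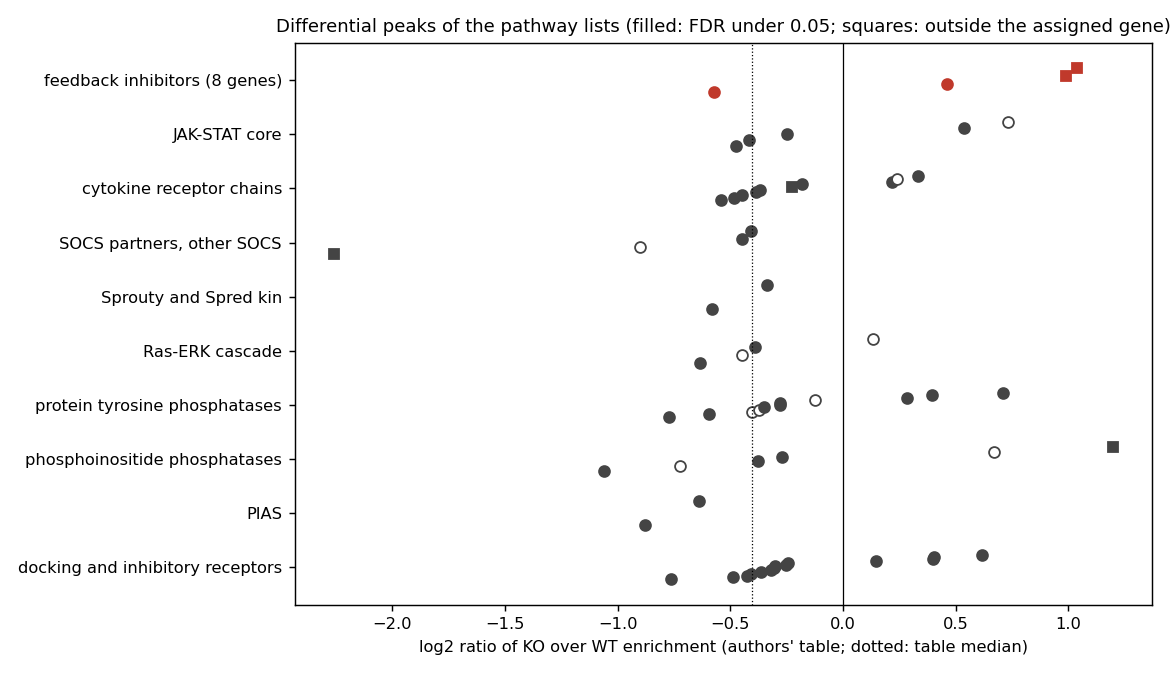
Log2 ratio of KO over WT enrichment (horizontal) of every differential peak of the 8 feedback inhibitor genes, by the authors' assignment, and of the other pathway lists (rows); 1 point is 1 peak. Filled points have an FDR under 0.05 and squares lie outside the assigned gene; most points lie left of 0, near the table's median (dotted line).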

How the data were processed

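The authors deposited, for each genotype, a list of peaks of IP over input with a fold enrichment (a ratio), a p-value and the log10 of a false discovery rate (handled as a score), all per the file headers. The deposited table of differences holds a log2 ratio, KO over WT, for peaks with a p-value under 0.05, and its companion adds input levels in FPKM, per the file headers. The build mm10 and the tools edgeR, StringTie, ChIPseeker, HOMER, HISAT2 and fastp are named in the submitters' processing notes. Which step each served, and the peak caller, are not given in the sources used here. No replicates were pooled, and read depth is unknown.

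Rows were taken by gene name. Peak starts in the files count from 0, since start plus 1 met the assigned transcript's start 1459 times in the KO list and the start itself 14 times, so 1 was added. Blocks were intersected with bedtools 2.31.1 (at least 1 base, strand ignored), an overlap step that was tested on simulated data. Gene extents came from RefSeq GRCm38.p6, where 8 of 8 symbols matched. Input differences are log2(FPKM + 1), KO minus WT; the added 1 shrinks the differences of weakly expressed genes. Python 3.11.15, numpy 2.4.6, pandas 2.3.3 and matplotlib 3.10.9 were used.

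The genes and lists were chosen with earlier results of these data known. The text names all 8 genes with every listed peak, the lowest and highest log2 ratio of each pathway list (1 peak per gene, that with the largest absolute ratio), and the 3 genes nearest to the Inpp5d peak. Genes named beyond these, and the peaks found by position, were chosen after their values were seen. Sequences of the peaks are not used here.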

Additional observations from a re-analysis of the deposited data

How the results depend on the processing

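With 1 library per group, every value here describes these libraries. Of the 10 KO and 9 WT peaks, 4 and 4 remained at 4-fold enrichment or more, 4 and 1 with a peak p no higher than 1e-10, and 5 and 5 at an FDR under 0.05, a setting added after seeing the data. Peaks shared with the other list numbered 3 in KO and 3 in WT when overlap had to reach 50% of both peaks, and 3 in KO and 4 in WT at 4-fold or more. The shares of all peaks at these overlap settings, and at a peak p no higher than 1e-10, were not worked out. With an absolute log2 ratio of at least 1, 0 lower and 1 higher differential peaks remained, and that higher peak lay in Grcc10. With a p of the difference under 0.001, 1 lower and 2 higher remained; the peak inside Ptpn6, at 0.001, was lost and both higher ones lay in Grcc10. Keeping only peaks on the assigned gene left 1 lower and 1 higher. Counting every peak on a gene's extent, also chosen after seeing the data, gave 2 lower and 1 higher. Centred on the table's median of -0.402, the other pathway genes had 22 lower and 35 higher peaks, their own median being -0.357. The Ptpn22 peak, at -0.402, lay on the table's median. The input differences kept their sign under each setting tried, at 0.151 for Inpp5d and 0.023 for Ptpn6 after the median difference was subtracted. The depth of the libraries is unknown, and a peak missing from a list may be one that was not detectable. No paired analysis was possible because each group has 1 library and the labels carry no replicate numbers.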
